A study of Mus musculus with 8 samples.

Results

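GABA receptors and the genes of inhibitory neurons were followed here as 29 named genes of the mouse hippocampus, 15 of them for receptor subunits, the inhibitory postsynapse and chloride transport, and 14 for GABA synthesis and interneuron identity. The rule takes the members by gene name. The array held 48 probes for the 29 genes, of 39429 probes in all, and all 29 genes were among the 18335 genes tested. The conditional knockout mice (CKO) were C57BL/6 with the genotype Ctcf loxP/loxP; Camk2a-Cre, and the controls (WT) carried the same Ctcf loxP/loxP alleles without Cre, so that both genotypes share the floxed alleles and an effect of Cre itself cannot be told apart from loss of Ctcf. Camk2a-Cre acts in excitatory forebrain neurons, while interneurons and glia keep Ctcf. Each genotype was measured in 3 pools of whole hippocampus from 3 mice each. Pool 1 held 2 females and 1 male of 19 to 23 weeks, pool 2 held 3 females of 18 to 19 weeks, and pool 3 held 3 males of 15 to 17 weeks, with the same makeup in both genotypes. All mice had been through an open field, a sensorimotor battery, the Morris water maze and a social approach test before the tissue was taken. The RNA of pool 1 was run on 2 arrays in each genotype, which were averaged, and the 8 arrays lay on 2 slides. In both genotypes slide 1 held pool 2 and the first array of pool 1. Slide 2 held pool 3 and the second array of pool 1. A difference within a slide thus compares 2 pools with 2, whose sex and age makeup differs between the slides, and is not a technical repeat.

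GABA is the main fast inhibitory transmitter of the forebrain. It is made from glutamate in interneurons by the decarboxylases GAD67 and GAD65, packed into vesicles by the vesicular transporter VGAT, and sensed by other cells through GABA-A receptors, which are chloride channels built of several subunits, and through GABA-B receptors, which act through G proteins. In the hippocampus most subunits are made by pyramidal and granule cells, which carry Cre here, although interneurons and glia also make several of them. The interneuron genes, in contrast, are taken here as markers of interneurons, which do not express Camk2a-Cre. The comparison thus asks how the inhibitory partners stand in tissue whose excitatory neurons lack Ctcf. Whole hippocampus does not show which cells made the RNA of a gene, and for these genes it need not be interneurons alone.

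Levels are log2 of the processed probe signal relative to the 75th percentile of the array, and differences are CKO minus WT on the same log2 scale. Ctcf, the deleted gene, stood at 0.18, 0.16 and 0.05 in CKO pools 1, 2 and 3, against 0.83, 1.12 and 1.04 in WT pools, a difference of -0.87 (SE 0.13). By limma over all genes its adjusted p was 0.142 in the comparison of pools and 0.0291 with the pool number as a block. Between 59.2% and 66.0% of spots per array were well above background. Markers of the labelled tissue were detected, with 8 of 12 dentate granule neuron markers and 7 of 8 CA1 pyramidal markers measured. The second array of WT pool 1 was the dimmest and departed from its mate, with a median absolute difference of 0.51 over all genes, against 0.22 for both arrays of CKO pool 1. The brightest probe of every member was well above background on all 8 arrays, and none was saturated.

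None of the 29 members passed an adjusted p of 0.05 in limma's test over all genes, with or without the pool number as a block. Of all 18335 genes 0.0382% were called higher and 0.00545% lower in CKO pools, and 0.562% were called in either direction with the block, so a count of 0 among 29 genes is near the background. At an unadjusted p under 0.05, 1 member stood out, Gabrd, where 5.48% of all genes did so. Of the members 13 were higher and 16 lower in CKO pools, with a median difference of -0.03 against 0.00 over all genes. The 15 receptor, postsynapse and chloride genes had 6 higher and 9 lower and a median of -0.13, and the 14 GABA synthesis and interneuron genes had 7 higher and 7 lower and a median of 0.03. Differences ran from -0.67 to 0.29 among the 15 and from -0.15 to 0.22 among the 14. All 14 intervals (95%) of the synthesis and interneuron genes included 0 and lay within 1 log2 unit of it, from -0.76 at their lowest to 0.83 at their highest.

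**Figure D1:**
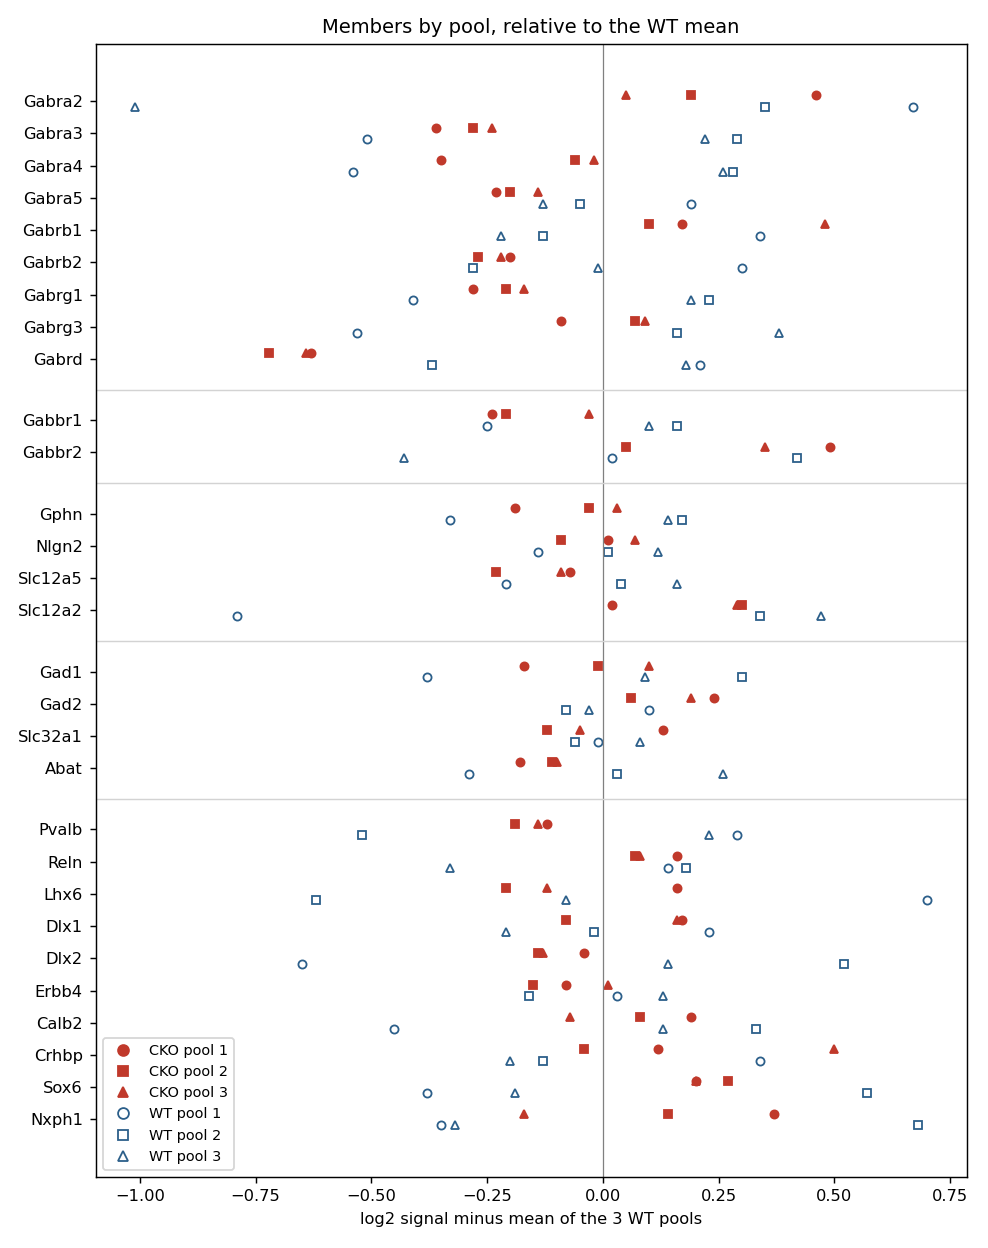
Each point is a pool's log2 signal for a member gene, minus the mean of the 3 WT pools for that gene; CKO pools are filled red and lie above the open blue WT pools of the same gene, and shapes give the pool number. Lines part the GABA-A subunits, GABA-B subunits, postsynapse and chloride genes, GABA synthesis genes and interneuron genes, and the CKO pools lie closer together than the WT pools in 27 of the 29 genes.

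Spread differed between the genotypes. The SD over pools had a median over members of 0.10 in CKO and 0.33 in WT, and the WT SD was the larger in 27 of 29 members. Over all genes the medians were 0.13 in CKO and 0.27 in WT, and the WT SD was the larger in 81.4% of genes. Without the second array of WT pool 1 the median WT SD over all genes was 0.16. WT pool 1 was the lowest WT pool in 15 members and the highest in 10.

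Among the 9 GABA-A receptor subunits 3 were higher and 6 lower in CKO pools, with a median of -0.19. Gabrd encodes the delta subunit of receptors outside the synapse, which carry tonic inhibition, respond to neurosteroids and are abundant in dentate granule cells. It had the largest difference of the 29 members. Gabrd stood at 0.80, 0.71 and 0.79 in CKO pools 1, 2 and 3, against 1.64, 1.06 and 1.61 in WT pools. Every CKO pool was lower than every WT pool, an arrangement seen in 5.65% of all genes, and WT pool 2 lay nearest to the CKO values. The difference was -0.67 (SE 0.17, 95% interval -1.06 to -0.28), a CKO level 0.63-fold that of WT, with an unadjusted p of 0.0042 and an adjusted p of 0.420 by limma. Within slide 1 the difference was -0.58 and within slide 2 it was -0.83, and with 1 pool left out it lay between -0.86 and -0.56. On single arrays Gabrd ran from 0.68 to 0.92 in CKO and from 1.06 to 1.77 in WT. The only Gabrd probe on the array is shown by its first 30 bases, since the largest difference among the members rests on this oligonucleotide alone.
Gabrd probe: aggccttttctctgtgggatcaggatcaga

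Dentate granule neuron markers were given beside Gabrd, from a list chosen with earlier results of these data known. The counts below are thus not independent of those results. Of 8 measured markers 6 were lower and 2 higher in CKO pools, with a median of -0.41 and a range from -1.10 to 0.47. None passed the adjusted threshold in the comparison of pools. An unadjusted p under 0.05 was found for 5, all lower, where 2.57% of all genes were lower at that p. All 8 were well above background on all CKO arrays, but only 7 on all WT arrays. The 2 higher markers, at 0.47 and 0.16, had WT means of -4.33 and -5.09. Named below are the 2 markers with the smallest unadjusted p by limma. C1ql2, a secreted synaptic protein of mossy fibres, stood at 0.20, -0.02 and 0.01 in CKO pools, against 1.73, 1.35 and 0.42 in WT pools (-1.10, SE 0.30, adjusted p = 0.471 by limma, 0.0465 with the pool number as a block). Dsp, which encodes desmoplakin, stood at -1.26, -1.14 and -0.75 in CKO pools, against -0.59, -0.24 and -0.07 in WT pools (-0.75, SE 0.20, adjusted p = 0.449, 0.073 with the block). The mean of the list lay at -0.31, -0.45 and -0.27 relative to the WT mean in CKO pools and at 0.01, 0.11 and -0.11 in WT pools. WT pool 2, the lowest WT pool for Gabrd, had the highest list mean, but the markers did not share an order of WT pools. For C1ql2 and Dsp pool 2 lay between the other WT pools. The list mean also includes the 2 markers with low WT means. The 7 measured CA1 pyramidal markers had 5 lower and 2 higher members and a median of -0.09, with 2 lower at an unadjusted p under 0.05 and 0 past the adjusted threshold. Wfs1, an endoplasmic reticulum protein, stood at 1.68, 1.70 and 1.79 in CKO pools, against 2.46, 2.74 and 2.71 in WT pools (-0.91, SE 0.12, adjusted p = 0.118 by limma, 0.0162 with the pool number as a block). The mean of the CA1 list lay at -0.19, -0.26 and -0.21 in CKO pools and at 0.12, -0.03 and -0.08 in WT pools. In bulk tissue fewer cells of a type and less RNA per cell cannot be told apart, and the part of granule or pyramidal cells in the differences of Gabrd and the other receptor genes was not tested.

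**Figure D2:**
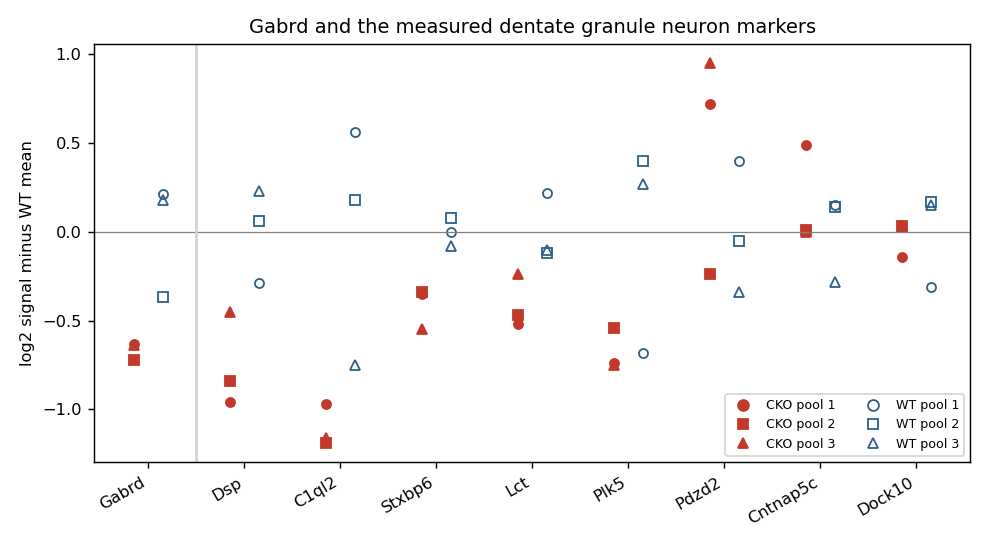
Points are pools, as log2 signal minus the mean of the 3 WT pools, for Gabrd at the left and for the 8 measured dentate granule neuron markers to its right; red filled CKO points stand left of blue open WT points. Gabrd in CKO pools lies below every WT pool, as do 4 of the 8 markers.

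Gabra4 encodes the alpha4 subunit, the usual partner of delta in granule cells. It stood at -1.52, -1.23 and -1.19 in CKO pools, against -1.71, -0.89 and -0.91 in WT pools (difference -0.15, SE 0.24). WT pool 1 lay below and WT pools 2 and 3 above all CKO pools, so the groups overlapped. With 1 pool left out the difference ran from -0.42 without WT pool 1 (unadjusted p = 0.0251, adjusted p = 0.216 by limma) to -0.02 without WT pool 3 and -0.01 without WT pool 2.

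Gabra5 encodes the alpha5 subunit, which also carries tonic inhibition, in pyramidal cells. It stood at 1.45, 1.48 and 1.54 in CKO pools, against 1.87, 1.63 and 1.55 in WT pools. Every CKO pool was lower than every WT pool, though the gap between both pools numbered 3 was only 0.01. The difference was -0.19 (SE 0.13, 95% interval -0.48 to 0.10, adjusted p = 0.999 by limma). By their brightest probes, Gabrd and Gabra5 were the only members whose pools did not overlap. These are 2 of 29, where 11.4% of all genes showed such a split in either direction. A further probe of Gabrg3 and another of Lhx6, both described below, had pools that did not overlap either.

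Gabra2 encodes the alpha2 subunit of synaptic receptors on pyramidal cells, enriched at the axon initial segment. It stood at 1.71, 1.44 and 1.30 in CKO pools, against 1.92, 1.60 and 0.24 in WT pools. WT pool 3 was far below the other 5 pools, and WT pools 1 and 2 were above their CKO counterparts. The difference was 0.23 (SE 0.38, 95% interval -0.64 to 1.10), and it was -0.28 without WT pool 3 and -0.18 within slide 1, which does not hold that pool. A second Gabra2 probe, listed under another transcript, showed the same low pool, with 0.60, 0.53 and 0.38 in CKO pools, against 0.54, 0.83 and -0.63 in WT pools (difference 0.26, SE 0.33). The probes are not independent, since the last 29 bases of the brightest probe are the first 29 of the other, and the stretches that hold them are given with the shared bases in capitals.
Gabra2 brightest probe, last 30 bases: tTCAGCTCACTTCAATCATTGGAAACTACC
Gabra2 second probe, first 30 bases: TCAGCTCACTTCAATCATTGGAAACTACCt

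Gabra3 and Gabrg1 followed a common pattern over the pools. Gabra3 encodes the alpha3 subunit and lies on chromosome X. It stood at 0.52, 0.60 and 0.64 in CKO pools, against 0.37, 1.17 and 1.10 in WT pools (difference -0.29, SE 0.21). Gabrg1, which encodes a gamma subunit found in glia as well as neurons, stood at -1.91, -1.84 and -1.80 in CKO pools, against -2.04, -1.40 and -1.44 in WT pools (difference -0.23, SE 0.21). In both genes WT pool 1 was the lowest of all 6 pools and WT pools 2 and 3 the highest. Without WT pool 1 the differences were -0.55 for Gabra3 (unadjusted p = 0.000771, adjusted p = 0.0913) and -0.43 for Gabrg1 (unadjusted p = 0.0146, adjusted p = 0.182), both by limma. With the second array of WT pool 1 alone left out they were -0.45 and -0.38, and without WT pool 2 they were -0.14 and -0.11.

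The members hold genes of 2 beta subunits, neither of which passed the test. Gabrb2 encodes the beta2 subunit of the most abundant synaptic receptors. It stood at 3.95, 3.88 and 3.93 in CKO pools, against 4.45, 3.87 and 4.14 in WT pools, and the groups overlapped through WT pool 2 (difference -0.23, SE 0.16). The difference was -0.37 without WT pool 2 and -0.08 without WT pool 1. Gabrb1, for the beta1 subunit, was higher, at 3.26, 3.19 and 3.57 in CKO pools, against 3.43, 2.96 and 2.87 in WT pools (difference 0.25, SE 0.18). WT pool 1 lay among the CKO values, and without it the difference was 0.42 (adjusted p = 0.173 by limma), against 0.14 without WT pool 3 or without CKO pool 3.

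Gabrg3, for a gamma subunit, was read by several probes, none of which was called. Its brightest probe gave -0.50, -0.34 and -0.32 in CKO pools, against -0.94, -0.25 and -0.03 in WT pools (difference 0.02, SE 0.23). A second probe gave -4.13, -4.38 and -3.29 in CKO pools, against -4.52, -4.63 and -5.09 in WT pools, with all CKO pools above all WT pools. Its difference was 0.81 (SE 0.32, unadjusted p = 0.0343, adjusted p = 0.885 over all probes by limma), but it was kept through the CKO arrays alone, standing well above background on 4 of them and on 2 of the 4 WT arrays, so its WT level is partly at background and the size is uncertain. Among all 23633 probes kept 5.30% had an unadjusted p under 0.05 and 11.2% had pools that did not overlap. Another probe gave 0.28 (SE 0.32) with pools that overlapped, and the last was not well above background on any array. The first 30 bases of the 3 probes kept are given because they are separate oligonucleotides, with no more than 6 bases in a row in common.
Gabrg3 brightest probe: cgccctctgtatttgtatttggattcctat
Gabrg3 second probe: tcgagattcaccaagtgcaatggaacctca
Gabrg3 further probe: ttcccgacatccttcctgctgttcaacctg

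**Figure D3:**
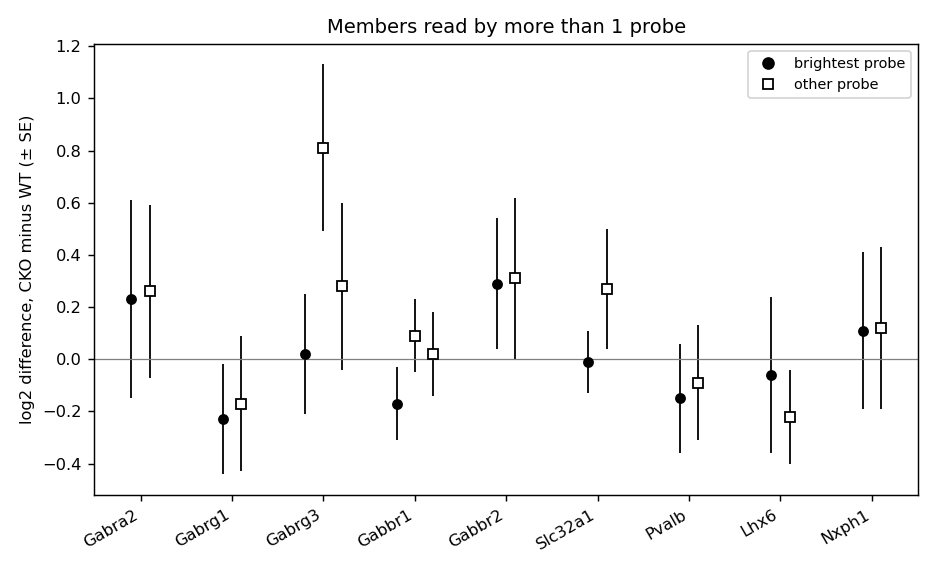
For the 9 members with more than 1 probe kept, each point is a probe's log2 difference, CKO minus WT, with its standard error from limma; filled circles are the brightest probe of the gene and open squares the others. The second Gabrg3 probe, at 0.81, cleared background on 2 of 4 WT arrays only, and the probes of Gabbr1 and Slc32a1 lie on both sides of 0.

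GABA-A subunit genes lie in clusters, which the gene order of the mouse assembly GRCm38.p6 shows. On chromosome 5 the order was Gabrg1, Gabra2, Gabra4 and Gabrb1, with 1 other protein-coding gene between Gabra2 and Gabra4. Their differences were -0.23, 0.23, -0.15 and 0.25 in that order, but -0.29, -0.18, -0.16 and 0.11 within slide 1 and 0.01, 0.41, 0.03 and 0.18 within slide 2. On chromosome 7 Gabrg3 and Gabra5 were direct neighbours, with differences of 0.02 and -0.19, the first of which changed sign with the scaling. None of these 6 genes passed the test.

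GABA-B receptors need both of their subunits to reach the surface and signal. Gabbr1, which binds GABA, stood at 3.40, 3.43 and 3.61 in CKO pools, against 3.39, 3.80 and 3.74 in WT pools (difference -0.17, SE 0.14). Its other probes gave 0.09 (SE 0.14) and 0.02 (SE 0.16), so the sign depended on the probe. Gabbr2, which couples to the G protein, stood at -2.19, -2.63 and -2.33 in CKO pools, against -2.66, -2.26 and -3.11 in WT pools (difference 0.29, SE 0.25). Its second probe kept gave 0.31 (SE 0.31). Both subunits had pools that overlapped and adjusted p of 0.999 by limma, and within slide 1 the Gabbr2 difference was -0.01.

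At the inhibitory postsynapse, Gphn encodes gephyrin, the scaffold that anchors receptors, and Nlgn2 the adhesion protein neuroligin-2. Gphn stood at 0.67, 0.83 and 0.89 in CKO pools, against 0.53, 1.03 and 1.00 in WT pools (difference -0.06, SE 0.16). Nlgn2 stood at 3.36, 3.26 and 3.42 in CKO pools, against 3.21, 3.36 and 3.47 in WT pools (difference 0.00, SE 0.12). The 95% interval of Nlgn2, -0.28 to 0.28, was among the narrowest of the members, and WT pools lay on both sides of the CKO pools in both genes.

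Chloride transporters set the direction of GABA-A currents: KCC2, encoded by Slc12a5, moves chloride out of mature neurons, and NKCC1, encoded by Slc12a2, moves it in. Slc12a5 stood at 4.58, 4.42 and 4.56 in CKO pools, against 4.44, 4.69 and 4.81 in WT pools (difference -0.13, SE 0.14, 95% interval -0.45 to 0.19). Slc12a2 stood at 0.65, 0.93 and 0.92 in CKO pools, against -0.16, 0.97 and 1.10 in WT pools (difference 0.20, SE 0.31). WT pool 1 stood alone below the other 5 pools, with 0.31 and -0.64 on its 2 arrays, and without it the difference was -0.20. NKCC1 is also abundant in the epithelium of the choroid plexus. The mean of 13 choroid plexus markers was taken relative to the WT mean. It was 0.97, 1.00 and 0.52 in CKO pools, against -1.19, 0.46 and 0.73 in WT pools. WT pool 1 was the lowest WT pool, as for Slc12a2 and in 15 of the 29 members. Among CKO pools the list mean was lowest in pool 3, but Slc12a2 in pool 1. All 13 were higher in CKO pools, with a median difference of 0.87. They were well above background on all CKO arrays, but only 10 of them on all WT arrays. The others were kept through the CKO arrays, where they were higher, so the counts and median of this list are partly set by the filter. An unadjusted p under 0.05 was found for 3, where 2.91% of all genes were higher at that p, and 0 passed the adjusted threshold. With the pool number as a block 9 of the 13 had an unadjusted p under 0.05, against 8.34% of all genes in either direction, and again 0 passed. The part of choroid plexus tissue in the Slc12a2 values was not tested.

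Genes of GABA synthesis, vesicle loading and breakdown differed by 0.17 or less. Gad1, for GAD67, stood at 1.05, 1.21 and 1.32 in CKO pools, against 0.84, 1.52 and 1.31 in WT pools (difference -0.03, SE 0.18). Gad2, for GAD65, stood at 2.36, 2.18 and 2.31 in CKO pools, against 2.22, 2.04 and 2.09 in WT pools. Each CKO pool lay above the WT pool of its number, by 0.14, 0.14 and 0.22, but CKO pool 2 lay below WT pool 1, and the difference of 0.17 (SE 0.12, 95% interval -0.10 to 0.44) did not pass the test (adjusted p = 0.999 by limma). Slc32a1, for the vesicular GABA transporter, stood at 3.57, 3.32 and 3.39 in CKO pools, against 3.43, 3.38 and 3.52 in WT pools (difference -0.01, SE 0.12, 95% interval -0.28 to 0.26). A second, dimmer Slc32a1 probe gave 0.27 (SE 0.23). Abat, for the transaminase that breaks GABA down, stood at 2.88, 2.95 and 2.96 in CKO pools, against 2.77, 3.09 and 3.32 in WT pools (difference -0.13, SE 0.15). The intervals of these 4 genes all lay within 0.5 log2 units of 0.

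Interneuron identity genes had 6 higher and 4 lower members in CKO pools and a median of 0.07. Pvalb, the calcium buffer of fast-spiking basket cells, stood at 3.55, 3.48 and 3.53 in CKO pools, against 3.96, 3.15 and 3.90 in WT pools (difference -0.15, SE 0.21). The CKO pools lay close together between WT pool 2 and both other WT pools. Without WT pool 2 the Pvalb difference was -0.41 (unadjusted p = 0.00737, adjusted p = 0.413 by limma), without WT pool 1 it was -0.01, and within slide 1 it was 0.07. Its second probe gave -0.09 (SE 0.22). Calb2, the calcium buffer of calretinin interneurons, stood at -1.80, -1.91 and -2.06 in CKO pools, against -2.44, -1.66 and -1.86 in WT pools (difference 0.07, SE 0.23). Calb2 is also a marker of thalamus and habenula. The 9 measured markers of that list, Calb2 among them, had 6 lower and a median of -0.24. Of these 9, only 8 were well above background on all WT arrays.

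Reln and Crhbp mark further interneuron classes. Reln, for the secreted protein reelin, stood at -2.54, -2.63 and -2.62 in CKO pools, against -2.56, -2.52 and -3.03 in WT pools (difference 0.11, SE 0.20), and without WT pool 3 it was -0.05. Crhbp, a binding protein for corticotropin-releasing hormone, stood at 0.93, 0.77 and 1.31 in CKO pools, against 1.15, 0.68 and 0.61 in WT pools (difference 0.19, SE 0.19). The receptor tyrosine kinase Erbb4, which binds neuregulins, stood at 1.01, 0.94 and 1.10 in CKO pools, against 1.12, 0.93 and 1.22 in WT pools (difference -0.07, SE 0.13). The pools of all 3 genes overlapped. Nxph1, for a secreted neurexin ligand, ranged over pools from -2.56 to -2.02 in CKO and from -2.74 to -1.71 in WT (difference 0.11, SE 0.30), and its second probe gave 0.12 (SE 0.31).

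Transcription factors that specify interneurons in the embryo were measured too. Dlx1 stood at -0.86, -1.11 and -0.87 in CKO pools, against -0.80, -1.05 and -1.24 in WT pools (difference 0.08, SE 0.17). Its neighbour on chromosome 2, Dlx2, stood at -2.17, -2.27 and -2.26 in CKO pools, against -2.78, -1.61 and -1.99 in WT pools (difference -0.10, SE 0.29). All 3 CKO pools of Dlx2 lay between WT pool 1 and both other WT pools, and WT pool 1 gave -2.25 and -3.32 on its 2 arrays. Sox6 stood at -3.08, -3.01 and -3.08 in CKO pools, against -3.66, -2.71 and -3.47 in WT pools (difference 0.22, SE 0.27), and the difference was 0.51 without WT pool 2 (adjusted p = 0.577 by limma) and 0.03 without WT pool 1.

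Lhx6, the factor of parvalbumin and somatostatin interneurons, was read by probes of very different kinds. Its brightest probe stood at 4.72, 4.35 and 4.44 in CKO pools, against 5.26, 3.94 and 4.48 in WT pools (difference -0.06, SE 0.30). That probe ends in a run of 29 bases of a repeated pair of letters, one of 183 probes on the array with a run of 18 or more bases of a 2- or 3-base repeat. On the 2 arrays of WT pool 1 it gave 4.56 and 5.97. Whether its signal comes from Lhx6 RNA alone was not tested, although the counts over members use this probe. The other Lhx6 probe kept had no such run and stood at -2.85, -2.82 and -2.80 in CKO pools, against -2.77, -2.52 and -2.54 in WT pools, all CKO pools below all WT pools (difference -0.22, SE 0.18, adjusted p = 0.999 over all probes by limma). The repeat is shown in capitals beside the start of the other probe.
Lhx6 brightest probe, last 30 bases: aACACACACACACACACACACACACACACA
Lhx6 second probe, first 30 bases: tcttatttgtgtaataaataaagttaatgc

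**Figure D4:**
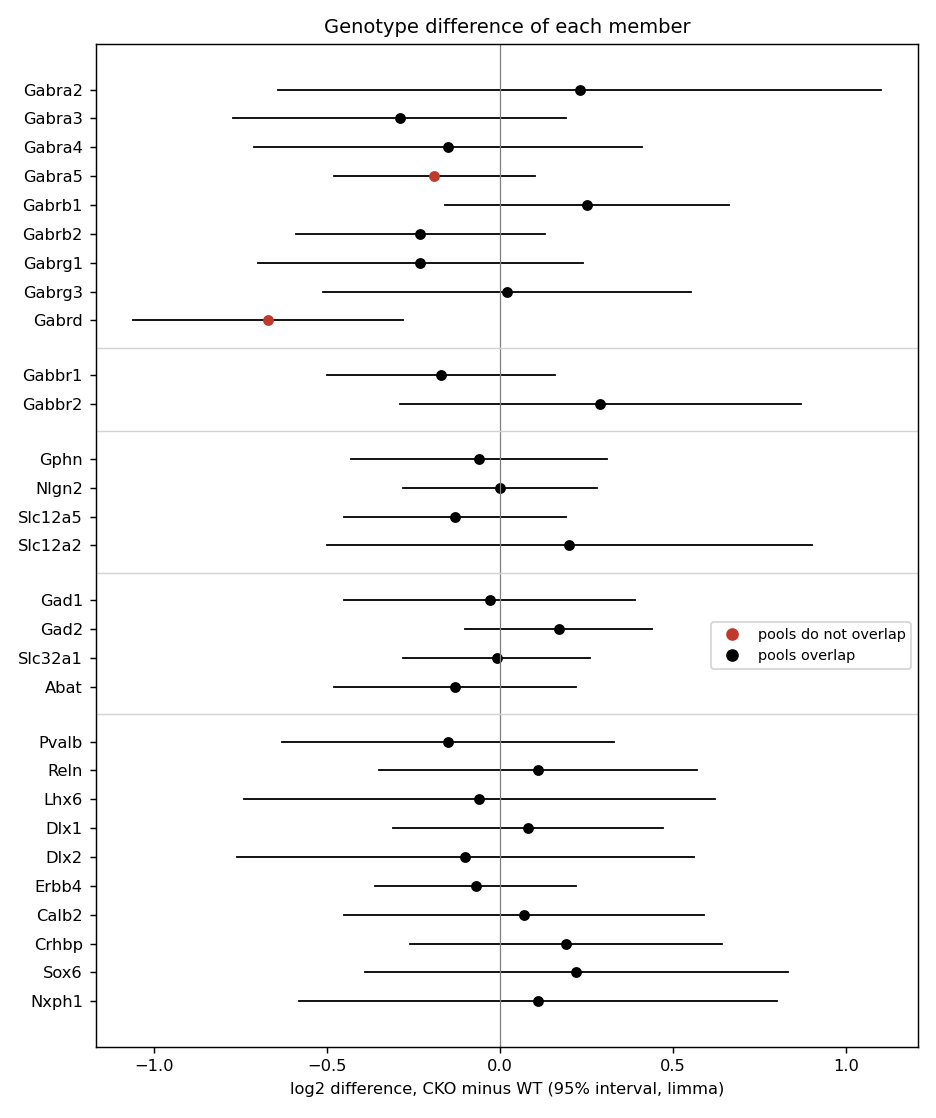
Points give each member's log2 difference by its brightest probe, CKO minus WT, and bars its 95% interval from limma. Red points mark the genes whose CKO and WT pools do not overlap on that probe. Gabrd alone has an interval that does not include 0, and its adjusted p is 0.420.

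Other genes of the inhibitory system gave the same count of calls. Further receptor subunits and receptor partners, 20 of them measured, split into 10 higher and 10 lower, with a median of 0.00. Trak2, a motor adaptor that binds GABA-A receptors, stood at 0.30, 0.88 and 0.99 in CKO pools, against -0.41, 0.36 and 0.37 in WT pools (0.62, SE 0.26, adjusted p = 0.890 by limma). Lhfpl4, which links GABA-A receptors to neuroligin-2, stood at 2.65, 2.64 and 2.78 in CKO pools, against 2.93, 2.94 and 2.92 in WT pools, with no overlap (-0.24, SE 0.11, adjusted p = 0.930). Of 18 further inhibitory synapse genes 10 were higher and 8 lower, with a median of 0.04. Igsf9b, an adhesion protein of inhibitory synapses, differed by -0.57 (SE 0.31), and Slitrk3, another such protein, by 0.43 (SE 0.25). No gene of these lists passed over all genes. Of the 38, 1 gene, Trak2, had an unadjusted p under 0.05, against 5.48% of all genes.

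Further interneuron genes, 35 of them measured, split into 11 higher and 24 lower, with a median of -0.09 and 0 past the adjusted threshold. All 35 were well above background on all CKO arrays, but only 32 on all WT arrays. The others were kept through the CKO arrays alone, so these counts are partly set by the filter. An unadjusted p under 0.05 was found for 1 higher and 3 lower genes, where 2.91% of all genes were higher and 2.57% lower at that p. The pools of 7 of the 35 did not overlap, 1 higher and 6 lower, against 11.4% of all genes in either direction and 5.65% lower. Npy, a neuropeptide of interneurons that granule cells also make after seizures, stood at 2.41, 2.67 and 2.48 in CKO pools, against 2.21, 2.12 and 1.96 in WT pools, with no overlap (0.42, SE 0.13, adjusted p = 0.600 by limma). Nr2f2, for the nuclear receptor COUP-TFII of interneurons derived from the caudal eminence, stood at 0.74, 0.73 and 0.69 in CKO pools, against 1.03, 1.03 and 1.08 in WT pools, with no overlap (-0.33, SE 0.11, adjusted p = 0.743). Rgs12, a regulator of G-protein signalling, differed by -0.28 (SE 0.11, adjusted p = 0.851). Sst, the neuropeptide somatostatin, named after its value was seen, stood at 4.81, 4.76 and 4.79 in CKO pools, against 4.91, 4.68 and 4.79 in WT pools (-0.01, SE 0.12). Markers of neighbouring striatum and septum, tissue that also holds GABA neurons, had 7 of 9 lower and a median of -0.26, and the mean of that list was -0.07, -0.28 and -0.20 in CKO pools, against 0.00, 0.01 and -0.01 in WT pools; their part in the interneuron values was not tested. Of the glial and vascular lists, oligodendrocyte markers had 9 of 10 higher, with a median of 0.22. Microglia markers had 7 of 10 higher, with a median of 0.24. Astrocyte markers had 6 of 10 higher, with a median of 0.04, and endothelial and mural markers 7 of 9, with a median of 0.06. Of those 9, only 8 were well above background on all WT arrays. No glial or vascular marker passed the adjusted threshold in the comparison of pools. With the pool number as a block 1 passed, the astrocyte marker Gfap (0.68, SE 0.12, adjusted p = 0.0459 by limma, 0.498 without the block). Of all genes 0.562% passed with the block in either direction.

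The 2 arrays of pool 1 show how far a member's value moved with the array. From the first to the second array members moved by -0.72 to 0.70 in CKO pool 1 and by -1.07 to 1.41 in WT pool 1. The median absolute move was 0.23 in CKO and 0.60 in WT, against a median absolute genotype difference of 0.15 over the members. The sign of the move was the same in both genotypes for 28 of 29 members and for 92% of all genes, the first arrays lying on slide 1 and the second on slide 2. Gabrd moved by 0.23 in CKO pool 1 and by 0.27 in WT pool 1.

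**Figure D5:**
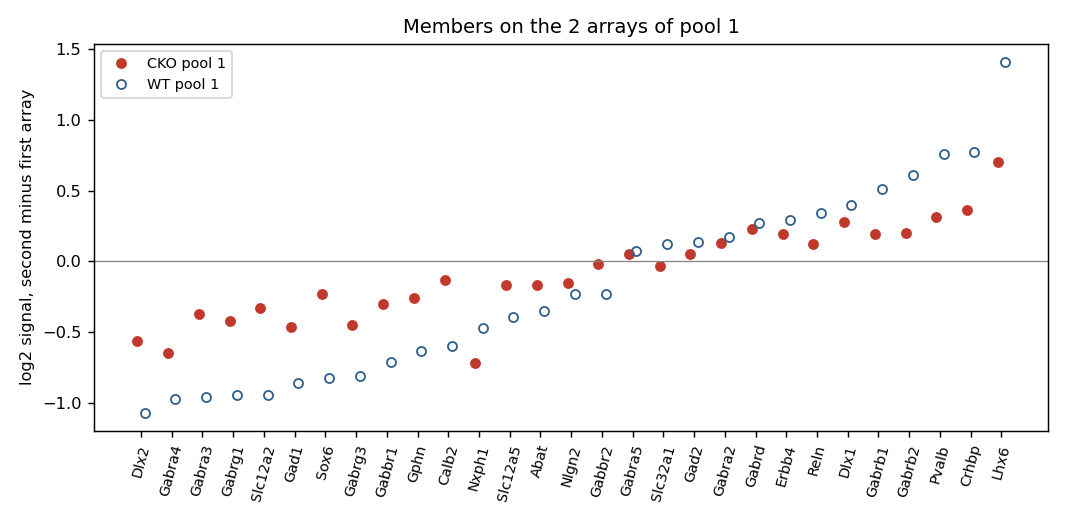
Each pair of points gives a member's log2 signal on the second array of pool 1 minus that on the first, red filled for CKO and blue open for WT, with members ordered by the WT value. Both genotypes move in the same direction in 28 of 29 members, and the WT moves reach from -1.07 for Dlx2 to 1.41 for Lhx6.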

How the data were processed

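Whole hippocampus of CKO and WT mice was measured on 8 Agilent arrays in the Cy5 channel. The deposited scanner files hold spot intensity, and the submitters' processing notes name Agilent Feature Extraction 11.5 as the software; per the file headers, the processed intensity had its background subtracted and its spatial trend removed array by array, with no normalization between arrays. The series table deposited by the authors holds linear intensity and was used as an alternative; how it was scaled is not stated in the sources used here. Other deposited columns used were flags for spots well above background, saturated or outlying.

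Each spot's processed signal was put on the log2 scale relative to the 75th percentile of its array. Outlier spots were left out, spots of a probe and arrays of a pool were averaged, and a probe was kept if all arrays of 1 genotype or of both had it well above background. A gene was read by its brightest probe kept. Genotypes were compared over 3 pools each in limma 3.58.1 under R 4.3.3, by a two-sided moderated test with a trend in the prior variance. P-values were adjusted over 18335 genes by the Benjamini-Hochberg method, with a threshold of 0.05. The smallest p of an exact test on 3 and 3 pools is 0.1. Probe levels are not set against each other, since probes bind unequally, and the number of arrays limits the precision. The file headers give build mm9, so gene order alone was taken from the RefSeq table of GRCm38.p6, where all 29 members matched by symbol. Probe letters come from the deposited files and stop at 30 bases.

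Deviations of same-numbered pools from their genotype's mean correlated at 0.55 for pool 1, 0.33 for pool 2 and 0.13 for pool 3. Between CKO pool 2 and WT pool 3 the value was 0.12, and between CKO pool 3 and WT pool 2 it was 0.11. The value for pool 3 was thus close to these. Other pairs of unlike number ran from -0.48 to -0.17. Deviations cancel out over the 3 pools of a genotype, so the negative values are partly forced by the positive ones. They are no separate ground for pairing. The pool number was fitted as a block beside the comparison of pools, as an alternative. The labels match sex and age, and the study methods at hand name no block. Pool 1 alone was averaged over both slides, and its move between arrays had the same sign in both genotypes for 92% of all genes. The parts of array and of mouse makeup in these correlations were not tested. Named genes were all members, Ctcf, up to 3 genes by unadjusted p from each of the 3 lists of further inhibitory genes, and up to 2 genes per marker list. The members and lists were chosen with earlier results of these data known. Some genes of these lists are not reported here.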

Additional observations from a re-analysis of the deposited data

How the results depend on the processing

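The count of members past the adjusted threshold was 0 in all 20 alternatives, and the lowest adjusted p of any member in any of them was 0.0913 (Gabra3 without WT pool 1). An alternative chosen after seeing the data left out repeat probes. From 1 to 8 members had an unadjusted p under 0.05, the 8 without WT pool 1, where 18.8% of all genes had one, and 1 member, Gabrd, had one in all 20 (difference -0.86 to -0.56; adjusted p 0.102 with the replicate block, 0.0936 with the first array of each pool). The block changed no member's call. Over all genes 7 higher and 1 lower became 72 higher and 31 lower with the replicate block, 67 and 58 with the first array of each pool, 60 and 48 without the second array of WT pool 1, 4 and 3 within slide 1, 0 and 0 within slide 2, and 3 and 0 with the authors' deposited table. With 1 pool left out they ran from 0 to 15 higher and from 0 to 6 lower. The lower count was 0 with quantile or median scaling, normexp background, no filter on dim probes, probes well above background on all arrays, the mean over probes kept, or the slide as a block. In 10 members the sign never turned and in 19 it turned at least once.

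Within slide 1 the sign turned for Gabra2 (-0.18), Gabbr2 (-0.01), Slc32a1 (0.08), Pvalb (0.07), Lhx6 (0.11), Dlx1 (-0.04) and Sox6 (-0.01). Within slide 2 it turned for Gabra4 (0.03), Gabrg1 (0.01), Gabbr1 (0.04), Gphn (0.10), Gad1 (0.21) and Dlx2 (0.30). With the first array of each pool it turned for Gabrg3 (-0.04), Nlgn2 (-0.01), Slc32a1 (0.01), Lhx6 (0.06) and Calb2 (-0.01), and without the second array of WT pool 1 for the same 5, at -0.12, -0.03, 0.01, 0.17 and -0.03. Scaling turned Gabrg3 (-0.03 by the array median, -0.02 with normexp, -0.04 in the authors' deposited table), Nlgn2 (-0.05 by the array median), Slc32a1 (0.02 by quantile, 0.03 with normexp, 0.05 in the authors' deposited table), Lhx6 (0.01 by quantile) and Dlx1 (-0.02 in the authors' deposited table). The mean over probes kept turned Slc32a1 (0.13). With 1 pool left out the difference spanned both signs for Gabra2 (-0.28 to 0.56), Gabrg3 (-0.24 to 0.21), Gphn (-0.22 to 0.03), Nlgn2 (-0.06 to 0.06), Slc12a2 (-0.20 to 0.44), Gad1 (-0.22 to 0.12), Slc32a1 (-0.08 to 0.04), Reln (-0.05 to 0.20), Lhx6 (-0.37 to 0.29), Dlx1 (-0.03 to 0.19), Dlx2 (-0.43 to 0.16), Calb2 (-0.16 to 0.23) and Nxph1 (-0.07 to 0.45). The causes were not tested.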
